A study of Rattus norvegicus with 36 samples.

Results

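The marker experiment of this study set RNA of the rat pineal gland beside RNA of other tissues, and its members are 3 of the 36 libraries deposited, chosen by their labels: 1 pineal day library, 1 pineal night library and 1 mixed tissue library. All were from Sprague-Dawley rats without surgery or drug listed for them, kept on a light:dark cycle, with glands taken at ZT7 (mid-day) or ZT19 (midnight) and pooled. The mixed tissue was taken at ZT7 and combined equal amounts of RNA from 15 tissues of 3 rats. These were regions of the nervous system (hindbrain, midbrain, cerebellum, cortex, hypothalamus, spinal cord and retina), the adrenal and pituitary glands, and lung, liver, heart, small intestine, skeletal muscle and kidney. The study's other 33 libraries, 24 of glands in vivo and 9 of cultured glands, are used here to show how the genes picked in the marker experiment behaved in pools that had no part in picking them. The in vivo glands came from male and female adult Sprague-Dawley rats without surgery (Control) or with surgery soon after birth. This was sham surgery (Sham), or decentralization (DCN) or removal (SCGX) of the superior cervical ganglia. The cultured glands came from female rats older than the in vivo rats. They were kept in culture first, then left untreated or treated with norepinephrine or dibutyryl cyclic AMP, and sequenced as a pool of their own. The part of culture in their differences from in vivo glands cannot be told apart from that of age, sex or pool. The age and sex of the marker rats were not given in the sources used here.

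The pineal gland makes melatonin, which it releases at night under control of sympathetic nerves from the superior cervical ganglia. Norepinephrine from these nerves acts through adrenergic receptors and cyclic AMP on pinealocytes, the cells that make up most of the gland. Pinealocytes are related to retinal photoreceptors and share part of their machinery, and retina was 1 of the 15 tissues in the comparison sample, so the comparison sample also held RNA of photoreceptors. The deposited tables list Ensembl gene identifiers, and neither they nor the gene table used here pair these with symbols. Melatonin pathway, photoreceptor and clock genes and the defining markers of each tissue were therefore not analysed here, no sequences are shown, and genes are described as groups, with 2 identifiers in each direction.

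The pineal day library held 28836161 read-pairs on genes, the pineal night library 36751559 and the mixed tissue library 38574186. A read-pair was found for 19264 genes at day, 19100 at night and 20800 in mixed tissue. Across 14656 genes with a mean above 1 CPM (read-pairs of a gene per 1000000 on all genes), the log2 profile of the pineal day library correlated with the Control day libraries (unoperated glands, 3 libraries at each time) at a Pearson r between 0.938 and 0.946, and that of the pineal night library with the Control night libraries at 0.946 to 0.952. The mixed tissue library reached 0.593 to 0.616 against the Control libraries, while Control libraries of the same time reached 0.989 to 0.994 among themselves. Of the 980 genes higher at night in Control, 952 were higher in the pineal night than in the pineal day library, and of the 487 genes lower at night in Control, 447 were lower in the pineal night library. Tissue and time labels of the 3 libraries were thus checked by profile and not by named markers. Among the libraries used for comparison, DCN day replicate 1 and Sham night replicate 3 stood apart, with more RNA of genes typical of the mixed tissues than any other in vivo library, and values that rest on them are also given without them.

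Most genes were at similar levels in pineal gland and mixed tissue, and the genes that stood apart were far more often lower than higher in the gland. Counts were scaled for each pair of libraries by median-of-ratios size factors. A gene was called higher where the mean normalized count of the pair was over 30 and the ratio over 8, and lower where the ratio was under 1/8. With 1 library on each side there was no test, and the 95% intervals given are exact (Clopper-Pearson) and cover counting error only. At day 221 of 15300 genes over the count minimum (1.44%) were higher in pineal and 2087 (13.6%) were lower. At night 360 of 15343 (2.35%) were higher and 2276 (14.8%) lower. Within 2-fold of mixed tissue lay 60.0% of genes at day and 56.0% at night. No gene was called higher at one time and lower at the other.

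**Figure D1:**
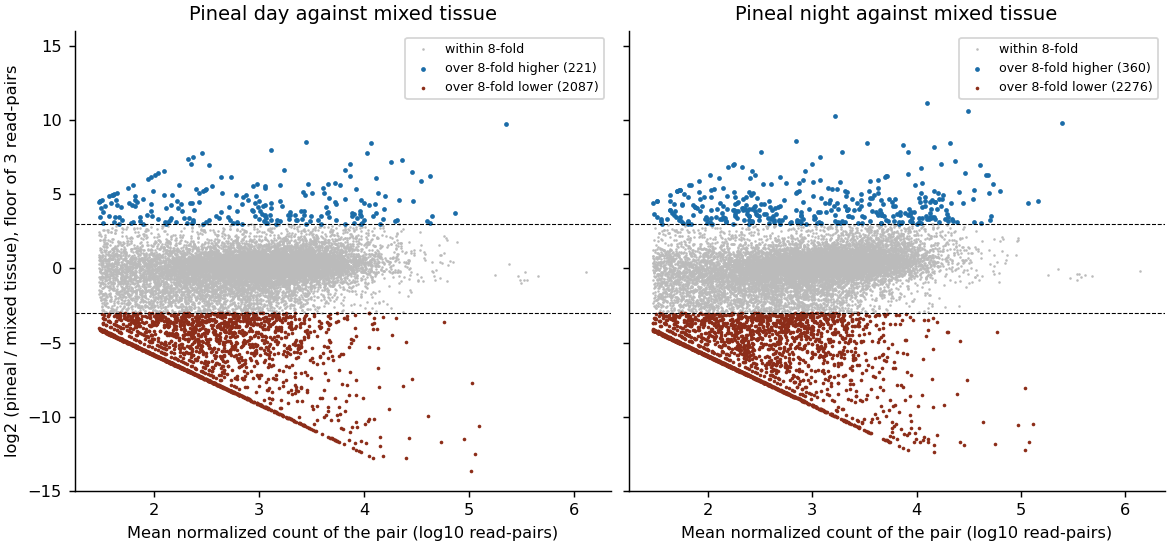
Each point is a gene over the count minimum, with the mean normalized count of the pair on a log10 axis and the log2 ratio of pineal to mixed tissue, computed with at least 3 read-pairs on each side, on the other, for pineal day (left) and pineal night (right). Dashed lines mark 8-fold; 221 and 360 genes lie above and 2087 and 2276 below, and the straight lower edge is where the pineal library had at most 3 read-pairs.

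The higher genes held a much larger part of the RNA of the gland than of mixed tissue. They took 6.65% of all read-pairs in the pineal day library against 0.326% in mixed tissue, and the night genes took 11.4% in the pineal night library against 0.657% in mixed tissue. Ratios between 8 and 32 were found for 160 genes at day and 275 at night, ratios between 32 and 128 for 41 and 63, and ratios over 128 for 20 and 22. A gene present at the pineal level in 1 of the 15 tissues and absent from the others would have a ratio of 15, and 118 of the 221 day genes (53.4%) and 196 of the 360 night genes (54.4%) were over that value. The lower bound of the counting interval was itself over 8 for 171 genes at day and 287 at night. Close to the limit, 31 day genes had a ratio from 8 to 9 and 40 more genes one from 7 to 8; at night these were 44 and 56.

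On the per-length RPKM scale the higher genes ran from rare to among the most abundant in the gland. The day genes had a median of 27.8 RPKM in the pineal day library, with a range from 1.21 to 7810, and the night genes a median of 66.4 RPKM in the pineal night library. Of the 418 genes higher at either time, 17 were among the 100 genes of highest RPKM in the pineal day library and 23 in the pineal night library. The gene ENSRNOG00000011672 alone held 20.3% of the read-pairs of the day genes and 10.7% of those of the night genes.

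ENSRNOG00000011672 and ENSRNOG00000024438 had the largest ratios that held at both times, by the smaller of their day and night ratio, among genes with more than 3 read-pairs in mixed tissue. ENSRNOG00000011672 had 388698 read-pairs in pineal day, 449873 in pineal night and 613 in mixed tissue. Its ratio was 852 at day (95% counting interval 787 to 924) and 897 at night (829 to 972). Its rank by RPKM was 6 in the pineal day library, 7 in the pineal night library and 8845 in mixed tissue.

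In the Control libraries ENSRNOG00000011672 was at 22374, 20747 and 20083 CPM at day and at 13540, 13312 and 13459 at night. All 3 day pools were above all 3 night pools, and the log2 change at night was -0.48 ± 0.14 (SE), which missed the threshold of 0.001 (edgeR, Benjamini-Hochberg adjusted p 0.0289 over all genes tested). The pineal marker libraries held 13480 CPM at day and 12241 at night. Cultured glands, which also differed in age, sex and sequencing pool, held less, with a mean of 5388 ± 780 (SD, n = 3) without treatment.

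ENSRNOG00000024438 had 2230 read-pairs in pineal day, 22839 in pineal night and 12 in mixed tissue. Its ratio was 250 at day (143 to 484) and 2326 at night (1331 to 4503), and the pineal night library was 9.41 times the pineal day library when these were scaled to each other. In Control it was at 22.9, 30.6 and 31.1 CPM at day and 139, 118 and 151 at night, without overlap, and the change was 2.44 ± 0.14 (SE) on the log2 scale (adjusted p 4.60e-06, edgeR with Benjamini-Hochberg adjustment). The pineal marker libraries held 77.3 CPM at day and 621 at night, above every Control library of the same time. Ratios to mixed tissue taken from the Control levels would thus be smaller.

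Day and night libraries of ENSRNOG00000024438 were apart in intact glands and overlapped where the ganglia had been cut off or removed, although the difference between these groups was not tested. Sham-operated glands held 29.99 ± 8.03 CPM at day and 154 ± 23.0 at night. Glands of DCN rats, whose superior cervical ganglia were cut off from their central input soon after birth, held 30.1 ± 4.38 and 30.04 ± 4.06, and glands of SCGX rats, whose ganglia were removed, held 49.1 ± 10.1 and 36.7 ± 2.56 (each SD, n = 3). In culture the level was 13.2 ± 0.836 without treatment, 43.4 ± 3.01 with norepinephrine (NE) and 48.5 ± 6.73 with dibutyryl cyclic AMP (DBcAMP), a cell-permeable form of cyclic AMP, and the 3 untreated cultures were below all 6 treated ones.

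The day and night comparisons share the mixed tissue library, so their lists are not independent of each other. Of the 418 genes called higher, 163 were called at both times, 58 at day and not at night, and 197 at night and not at day. The genes called at both times were 73.8% of the day list and 45.3% of the night list. At both times the ratio was over 32 for 38 genes and over 128 for 15.

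A gene missing from a list was often still above mixed tissue. For the 197 genes called at night and not at day, the day ratio had a median of 3.53, was over 4 for 81 genes and under 1 for 23, and 47 of the 197 were under the count minimum at day. For the 58 genes called at day and not at night, the night ratio had a median of 6.004, was over 4 for 42 genes and under 1 for 5, and 17 were under the count minimum at night. The night genes thus lay further from the limit at the other time than the day genes did, by these medians.

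**Figure D2:**
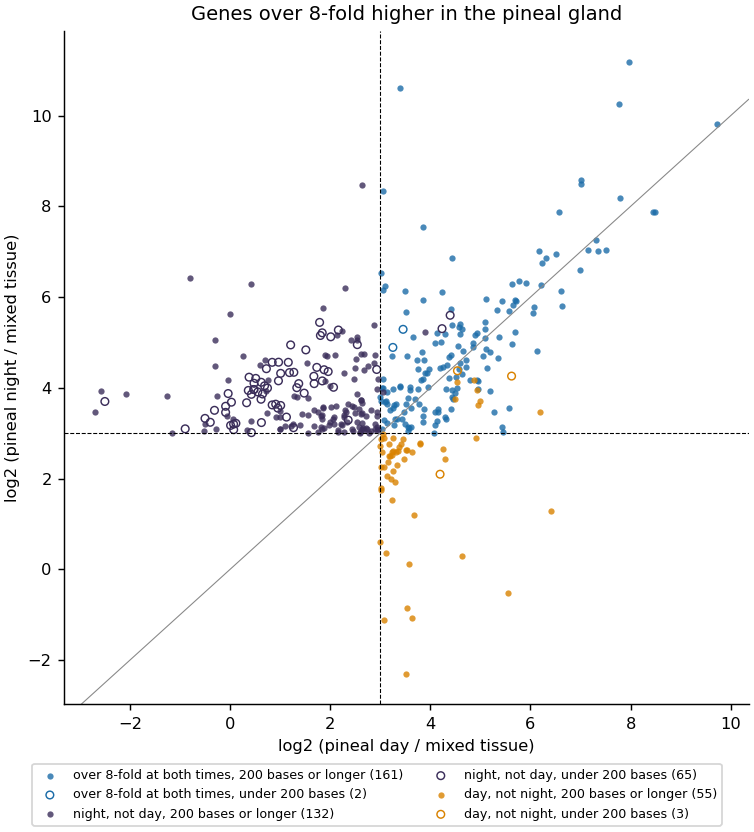
Log2 ratio to mixed tissue at day (horizontal) and night (vertical) of the 418 genes called higher at either time, computed with at least 3 read-pairs on each side, with open circles for genes shorter than 200 bases. Dashed lines mark 8-fold and the grey line equality; the 197 genes called at night and not at day fill the upper left, 65 of them as open circles, and the few of them right of the vertical line were under the count minimum at day.

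Between the pineal night and day libraries themselves, the 163 genes called at both times were mostly level, and 132 of them lay within 2-fold. The 197 genes called at night and not at day had a median log2 night/day ratio of 2.41, with 112 of them over 4-fold, which follows in part from how they were picked. The 58 genes called at day and not at night had a median of -1.01. Over all 13445 genes above the count minimum in this pair the median was 0.03, with 819 genes over 2-fold higher at night and 654 over 2-fold higher at day. Scaling by library size in place of size factors would shift every night/day value by -0.227.

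The Control libraries, which had no part in the lists, gave a replicated test of the same night/day contrast. In that test 1467 of 15607 genes (9.4%) differed, 980 of them higher (6.28%) and 487 lower (3.12%) at night, by edgeR's quasi-likelihood test at an adjusted p under 0.001. Of the 418 genes higher than mixed tissue at either time, 411 were tested, and 166 (40.4%) were higher and 31 (7.54%) lower at night. Their median log2 change was 0.74 against -0.04 over all genes tested. Of the 166 that rose, 140 had been called at night and not at day, so this excess follows in part from how the list was picked. With library size as the scaling, the split over all genes was 735 higher of 1585 called (46.4%, against 66.8%) and that of the enriched genes was 159 higher and 39 lower. Leaving out Control day replicate 1, 2 or 3 or night replicate 2 lowered the 1467 calls to 880, 817, 801 or 800, while 162 to 200 of the enriched genes were called without any 1 Control library.

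In Control the lists went different ways between day and night. Of the 196 genes tested that were called at night and not at day, 140 (71.4%) rose at night in Control and 1 fell, with a median log2 change of 2.40, and 106 rose over 4-fold. The sign in Control was that of the marker pair for 186 of the 196. Of the 53 genes tested that were called at day and not at night, 14 (26.4%) fell and 2 rose, with a median of -0.70, and the sign was shared for 37. Of the 162 tested that were called at both times, 24 (14.8%) rose and 16 (9.88%) fell, with a median of 0.11. Of all genes tested, 6.28% rose and 3.12% fell.

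Across the 411 enriched genes tested, the log2 night/day ratio of the marker pair and the log2 change in Control had a Pearson r of 0.881 and a Spearman rho of 0.860, as a description across genes, which are not independent replicates. Without genes shorter than 200 bases, the values over the remaining 343 were 0.856 and 0.789. Over 13390 genes above the count minimum the values were 0.695 and 0.629. The lists span a wider range of night/day ratios than all genes do, which by itself raises a correlation.

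**Figure D3:**
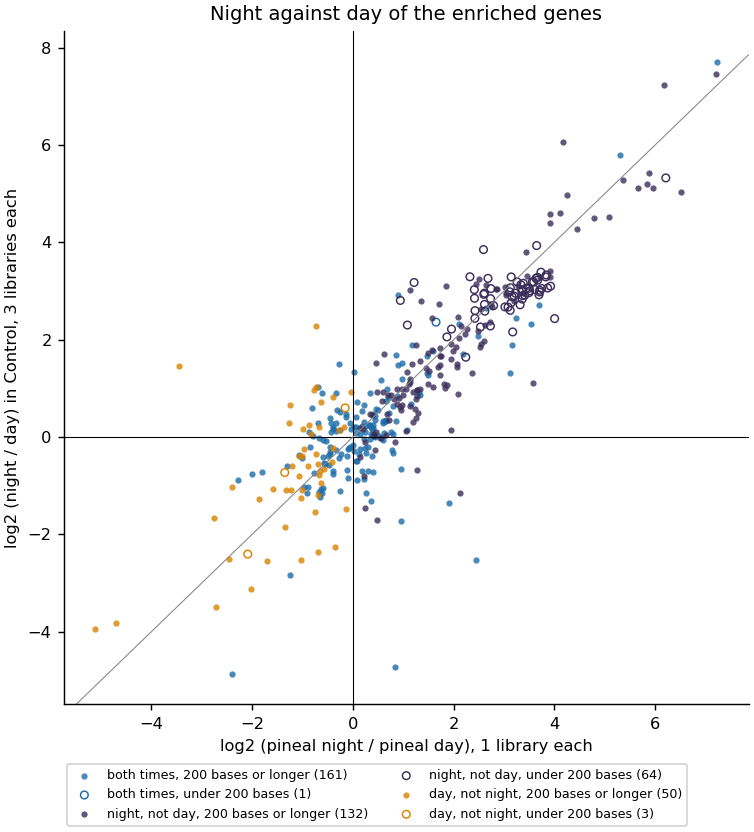
Log2 night/day ratio of the enriched genes in the marker experiment (horizontal, 1 library each) against the log2 change in Control from edgeR (vertical, 3 libraries each), with open circles for genes shorter than 200 bases and a grey line for equality. Genes called at night and not at day lie mostly in the upper right, where the 64 tested short ones form a tight group around a Control value of 2.98.

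A group of very short annotated genes made up much of the night list. The limit of 200 bases used here was set after the gene lengths had been seen. Of the 197 genes called at night and not at day, 65 (33.0%) were shorter than 200 bases, with a median length of 87 bases, and 60 of them were between 80 and 100 bases long. Of all genes over the count minimum at night, 206 (1.34%) were that short, and among genes called at both times or at day and not at night there were 2 and 3.

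The read-pairs of the 65 short genes ran from 4 to 106 in pineal day (median 29), from 51 to 758 in pineal night (median 284) and from 1 to 57 in mixed tissue (median 19). The ratio to mixed tissue ran from 0.177 to 21.1 at day (median 1.88) and from 8.07 to 48.5 at night (median 16.04), with at least 3 read-pairs on each side. That it was high at night and lower at day follows from how these genes were picked.

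In the Control libraries 61 of the 64 short genes tested rose at night by edgeR's test, all 64 had a log2 change above 0 (1.64 to 5.32), and the middle of their log2 changes was narrow, with quartiles at 2.72 and 3.16 around a median of 2.98. Of all 701 genes shorter than 200 bases that were tested, 116 (16.5%) rose and 3 fell. The 132 longer genes called at night and not at day also rose for the larger part, 79 of 132 (59.8%), with a median of 1.48 and quartiles at 0.78 and 2.83. Without any gene shorter than 200 bases, the enriched genes that differed in Control were 135 in place of 197. Of the 343 longer enriched genes tested, 104 (30.3%) were higher and 31 lower at night, with a median log2 change of 0.36. With the short genes included, 40.4% were higher and the median was 0.74. Over all 14906 longer genes tested, 864 were higher and 484 lower at night.

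Summed over the 65 short genes, intact glands held several times more at night than at day, and glands of DCN and SCGX rats were in between. The sum was 227 to 260 CPM in the 3 Control day libraries and 1467 to 1710 at night. In Sham glands it was 257 to 285 at day and 1487 to 2097 at night. DCN glands held 417 to 490 at day and 596 to 693 at night, and SCGX glands 535 to 611 at day and 609 to 639 at night. The DCN and SCGX libraries thus lay above every intact day library and below every intact night library at both times.

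The short genes were also higher in treated than in untreated cultures. Their sum was 374 to 395 CPM in the 3 untreated cultures, 868 to 989 with NE and 688 to 886 with DBcAMP. These sums are given as ranges, without a test.

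The marker libraries held less of the short genes than the Control libraries did at the same time. The sum was 70.3 CPM in pineal day and 506 in pineal night, below the lowest Control library of each time, and the median log2 difference from the Control night mean was -1.66. For 170 other genes shorter than 200 bases that difference was -0.24. The longer genes called at night and not at day summed to 49369 CPM in pineal night, inside the Control night range of 44730 to 52870. The experiments differ in rats, library pool and sequencing run, and the part of these in the level of short genes cannot be told apart. Read-pairs were counted where they overlapped an annotated exon, so the counts do not tell a short RNA from a longer transcript that runs across it, nor near-identical copies from each other.

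**Figure D4:**
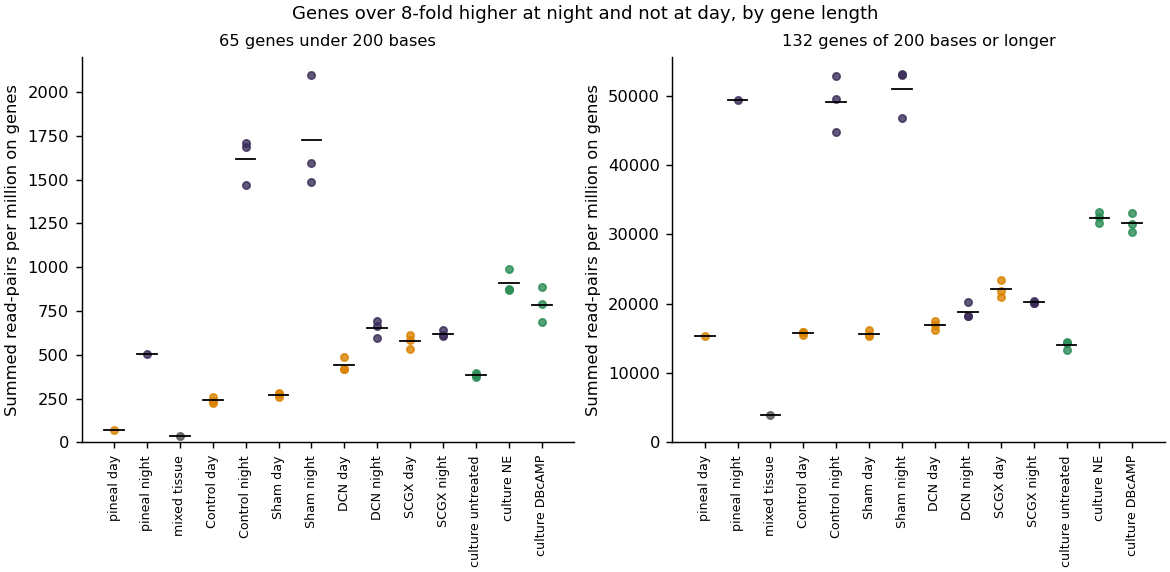
Summed CPM of the 65 short (left) and 132 longer (right) genes called at night and not at day, 1 point per library with a bar at the group mean (the bar of a group with 1 library is its value). Both sums are highest in intact night glands of the series, apart from pineal night in the left panel, where pineal day and pineal night lie at 70.3 and 506, below Control.

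Levels of most enriched genes were within 2-fold between experiments, although less often than those of all genes. Of 220 day genes with a Control level, 165 (75%) were within 2-fold of the Control day mean in the pineal day library, where 83.8% of all genes over the count minimum were. For the night genes it was 243 of 360 (67.5%), against 84.1% of all genes picked in the same way in the pineal night library. Inside the range of the 3 Control libraries lay 36 of the 220 day genes, where 2554 of all 13620 genes did, and 66 of the 360 night genes, where 2750 of 13478 did. Of the 69 night genes at less than 1/2 of the Control night mean, 52 were shorter than 200 bases, and among the 293 longer night genes 230 (78.5%) were within 2-fold. Against mixed tissue, the median log2 ratio of genes called at both times was 3.81 to 4.35 in the 24 in vivo libraries. Pineal day and pineal night, where the lists were picked, were at 4.37 and 4.61. Genes called at day and not at night had 2.76 to 3.02 in Control and Sham day libraries and 3.39 in pineal day. Genes called at night and not at day went the other way, with 3.75 to 4.17 in Control and Sham night libraries and 3.64 in pineal night.

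In the other libraries of the study, the genes called at both times took 4.97% to 7.04% of read-pairs in the 24 in vivo libraries, against 0.257% in mixed tissue. The 3 SCGX day libraries (6.61% to 7.04%) were above all intact libraries, and the Control day libraries (6.29% to 6.36%) above the Control night libraries (5.75% to 6.01%). That Control difference rested on 1 member of the list, ENSRNOG00000011672, with a mean of 21068 CPM at day and 13437 at night. Its fall was larger than that of the list, so the other members together took more at night by these means. The marker pair went the other way, with 6.004% in pineal day and 6.448% in pineal night. In culture the genes called at both times took less, 4.22% to 4.62% without treatment and 4.02% to 4.35% with NE or DBcAMP. Age, sex and sequencing pool differed as well, and their part cannot be told apart from that of culture. Bulk RNA cannot tell fewer cells of a type from less RNA per cell.

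The genes called at night and not at day took 1.56% to 1.65% of read-pairs in the 6 intact day libraries (Control and Sham) and 4.62% to 5.52% in the 6 intact night libraries. In the 12 DCN and SCGX libraries they took 1.66% to 2.41%, a range above the intact day libraries and below the intact night libraries. Untreated cultures were at 1.38% to 1.49% and treated ones at 3.12% to 3.42%. The genes called at day and not at night took 0.610% to 0.715% in intact day, 0.309% to 0.495% in intact night and 0.595% to 0.723% in DCN and SCGX libraries, so that the DCN and SCGX libraries overlapped the intact day range and were all above the intact night range.

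**Figure D5:**
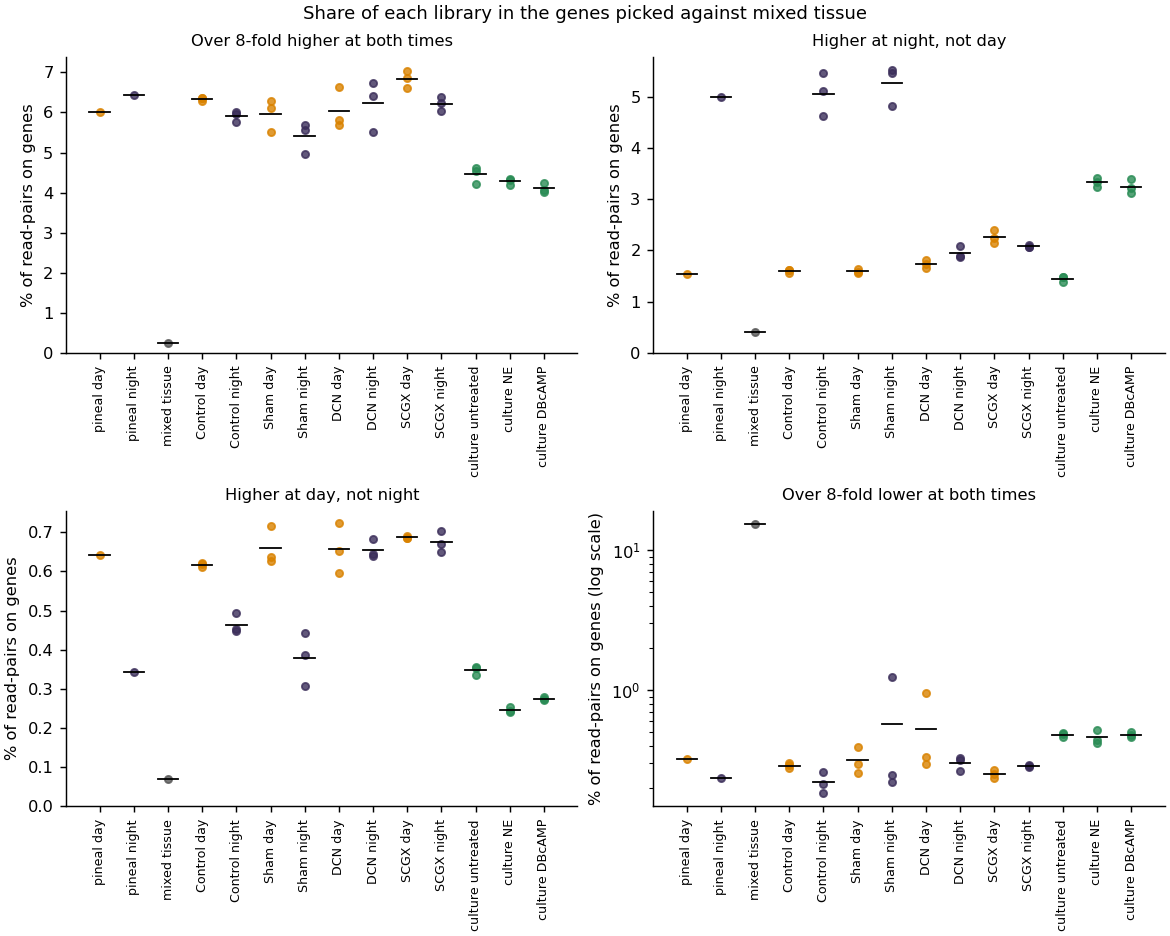
Percentage of all read-pairs on genes taken by each list, 1 point per library with a bar at the group mean, for the 163 genes higher at both times, the 197 higher at night and not at day, the 58 higher at day and not at night, and the 1930 lower at both times (log scale). Orange is day, dark purple night, green culture and grey mixed tissue; the first list lies between 4.97% and 7.04% in all in vivo libraries, the second is high in intact night glands alone among them, and 2 libraries stand above the rest in the last panel.

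On the lower side, 1930 genes were below mixed tissue at both times. They took 15.4% of the read-pairs of mixed tissue but 0.324% in pineal day and 0.236% in pineal night. The median log2 ratio of the lower genes was -5.17 at day and -5.19 at night with at least 3 read-pairs on each side, so these are limits for genes with fewer. No read-pair was found in either pineal library for 265 of the 1930, and 720 had at most 3 in each. There were 152 genes with more than 1000 read-pairs in mixed tissue and at most 3 in each pineal library. Of the 724 that could be tested in Control, 9 (1.24%) rose and 8 (1.10%) fell at night, against 6.28% and 3.12% of all genes tested. Their changes were wider than those of all genes tested, with 540 of 724 under 2-fold against 13634 of 15607, and their counts in the gland are low.

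Across the in vivo libraries these 1930 genes took 0.185% to 0.397% of read-pairs, except in DCN day replicate 1 (0.961%) and Sham night replicate 3 (1.25%). Cultures held 0.421% to 0.522%, above all other in vivo libraries. Without these 2 libraries, the sum over the 65 short genes was 422 and 490 CPM in DCN day and 1595 and 2097 in Sham night glands, and ENSRNOG00000024438 was at 35.1 and 26.8 CPM in DCN day and 128 and 165 in Sham night glands. The share of the genes called at both times was then 5.51% to 7.04% in vivo. The genes called at night and not at day took 4.62% to 5.52% in intact night and 1.74% to 2.41% in DCN and SCGX libraries, and those called at day and not at night 0.387% to 0.495% and 0.641% to 0.723%.

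ENSRNOG00000011207 and ENSRNOG00000006471 were the most depleted by the larger of their day and night ratio, computed with at least 3 read-pairs on each side. ENSRNOG00000011207 had rank 9 by RPKM in mixed tissue, with 241023 read-pairs there, 14 in pineal day and 40 in pineal night. Its ratio was 7.80e-05 at day (4.27e-05 to 0.000131) and 0.000203 at night (0.000145 to 0.000276), or 12812- and 4930-fold lower. In the other 33 libraries it had 2 read-pairs in all, both in DCN day glands. ENSRNOG00000006471 had 18228 read-pairs in mixed tissue and 2 in each pineal library, a ratio of 0.000147 at day (1.79e-05 to 0.000533) and 0.000134 at night (1.62e-05 to 0.000485) from the counts as they are, or 0.000221 and 0.000201 with 3 read-pairs in place of 2. In Control it had 0 read-pairs at day and 1 at night over 3 libraries each, while DCN day glands had 47 and Sham night glands 24, most of them in the 2 libraries just named, and cultures had 29 untreated, 48 with NE and 46 with DBcAMP.

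Some genes of mixed tissue were picked because the in vivo glands of the other experiment had no read-pair of them. Their absence there follows from that choice, and a few of their read-pairs were found in the marker pineal libraries. Among genes with more than 1000 read-pairs in mixed tissue, 33 had none in any of the 24 in vivo libraries, which held 366719630 read-pairs in all. These 33 genes had 200823 read-pairs in mixed tissue, 47 in pineal day and 43 in pineal night, or 0.0234% and 0.0214% of their count in mixed tissue. A read-pair was found for 17 of the 33 in pineal day and 19 in pineal night, with up to 17 and 13 from 1 gene. The 3 marker libraries were sequenced together on 1 lane, and its part in these read-pairs was not tested.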

How the data were processed

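The 3 marker libraries and the 33 other libraries were stranded, ribo-depleted total RNA. Per the labels and the study's methods, the authors aligned read-pairs with STAR 2.3.1y to rn4 and counted them per Ensembl gene. The deposited counts are whole read-pairs without normalization, and the deposited RPKM values are those counts per length and library total, used for levels between genes and to recover gene lengths. Read-pairs on more than 1 gene were left out by the authors.

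Ratios, intervals and shares were computed in Python 3.11.15. The Control contrast (3 libraries at each time) was fitted with edgeR 4.0.16 in R 4.3.3 (TMM, quasi-likelihood test, Benjamini-Hochberg adjustment, mean normalized count of at least 5), where the study used DESeq2. Each Control library is a pool of glands. Both procedures were tested on simulated data, which for the ratios held counting error alone and so no spread between pools. A floor of 3 read-pairs was used for ratios against low counts. Control libraries held 15260599 to 16734129 read-pairs.

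The members, lists and thresholds were chosen with earlier results of these data known, and the length limit after seeing the lengths. Identifiers were named by the largest ratio held at both times. Alternatives were other scalings, count filters, a ratio of 32, the interval bound, DESeq2 1.42.0, the replicate block, leaving out Control libraries and leaving out short genes. Gene lists, tissue markers and promoter motifs planned for genes with symbols were not analysed here, nor were RPKM values of the other libraries.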

Additional observations from a re-analysis of the deposited data

How the results depend on the processing

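The marker lists moved little with TMM or size factors of all 3 libraries, which gave 217 and 219 genes higher at day and 348 and 352 at night. At both times these gave 159 and 161, and at either time 406 and 410. Scaling by library size gave 210 at day, 294 in place of 360 at night, 146 at both times and 358 in place of 418 at either time. Library size shifted all log2 night ratios by -0.220, and put ENSRNOG00000011672 at 9.59 at night in place of 9.81. A mean normalized count of at least 5 raised the day list to 339 genes, the night list to 476, both times to 223 and either time to 592. A ratio of 32 in place of 8 left 61 genes higher at day, 85 at night, 38 at both times and 108 at either time, with 1263 lower at day and 1387 at night. Leaving out genes shorter than 200 bases, an alternative chosen after seeing the data, gave 216, 293, 161 and 348 higher genes. No marker library could be left out, since each group had 1.

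In Control, DESeq2 called 2755 genes in place of 1467; the cause was not tested. Leaving out 1 library gave 800 to 1499, with 880, 817 and 801 without day replicates 1, 2 and 3 and 800 without night replicate 2. The replicate numbers did not pair the libraries, since deviations of same-numbered day and night libraries correlated at -0.036, 0.172 and -0.059, day replicate 2 alone correlating best with its own number. With the replicate block 896 genes were called. The enriched genes called in Control, 197 as reported, were 173 with the block, 259 with DESeq2 and 162 to 200 without 1 library. Counts of 1 library bound each marker ratio by counting error alone, and the spread between pools of glands is unknown for them.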
